A study of Mus musculus with 8 samples.

Results

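The 8 genes followed here handle misplaced nucleic acid, and their levels were measured across the cells of mouse erythroblastic islands: Dnase2a, Dnase1l3, Trex1, Samhd1, Adar, Ifih1, Ddx58 and Zbp1. They were chosen by name, and 7 of the 8 had a row among the 19669 genes of the deposited count table. Trex1 was not analysed here. Atrip overlaps Trex1 on the same strand, and the row for Atrip was not read as Trex1. Gene positions are those of the GENCODE M21 annotation of mm10.

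An erythroblastic island is a central macrophage with red cell precursors attached to it, and the macrophage takes up the nuclei that the precursors expel. DNase II, the product of Dnase2a, is the lysosomal enzyme that digests this DNA, and mouse embryos without it die anemic with undigested nuclei in their macrophages and high type I interferon. DNase1L3 is a secreted nuclease that acts on DNA in chromatin and in vesicles, and its loss leads to antibodies against DNA. SAMHD1 breaks down deoxynucleotides, and ADAR edits double-stranded RNA so that it is not sensed. MDA5 (Ifih1) and RIG-I (Ddx58) are cytosolic receptors for viral-type RNA, and ZBP1 binds nucleic acid in the Z form and can start inflammatory cell death.

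The cells came from male mice of the lupus-prone strain Sle1.Yaa, which carries the Sle1 susceptibility interval and the Yaa duplication of a segment with Tlr7. Mice with a human TLR8 transgene were labelled Anemic and gave 2 marrow and 2 spleen libraries, and control mice without it were labelled Non-Anemic and gave 3 marrow libraries and 1 spleen library. The strain background was common to both groups. The sources used here name neither the promoter of the transgene nor the ages of the mice. Libraries were made with 10x Genomics V3.1 chemistry from islands taken apart into single cells.

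The table held 24942 cells with 248384567 UMIs (unique molecular identifiers, each a counted RNA molecule), with a median of 7554 UMIs per cell. Its columns carried barcodes but no library, so the cells were 1 pooled sample and no difference between genotypes or tissues was measured. The barcodes fell into 8 alphabetically sorted runs of 447 to 6787 cells, as many as there were libraries. Runs served here only to show a range, under the numbers 1 to 8 in column order, and no run was given a genotype or a tissue. A class value within a run is given where the run held at least 20 cells of the class. In all, 1031 cells carried 287 barcodes that occur more than once. No test was made on the pooled sample, and the intervals below are exact 95% Poisson or binomial intervals that cover counting error only.

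Cells were placed in 22 classes by marker genes, none of which is a gene of the set, and 21215 cells, 85.06%, received a class. Erythroid stages were divided by the share of UMIs from globin genes, at 2%, 20%, 60% and 80%. All 14 island macrophage markers were above 20 CPM (UMIs of the gene per 1000000 UMIs of the class) in the 386 island macrophage-like cells, with a sum of 28690 CPM against 8325 CPM in the Fcgr4 phagocyte-like cells and 328 CPM in the classical monocyte-like cells. The 12 erythroid markers summed to 1274 CPM in the island macrophage-like cells, 351 CPM in the Fcgr4 phagocyte-like cells and 85.6 CPM in the monocyte-like cells. The part of erythroid RNA in results on these macrophages was not tested, except where values without the globin-laden cells are given. UMI counts at transcript ends do not depend on transcript length, but each gene is compared here across classes and not with the other genes.

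**Figure D1:**
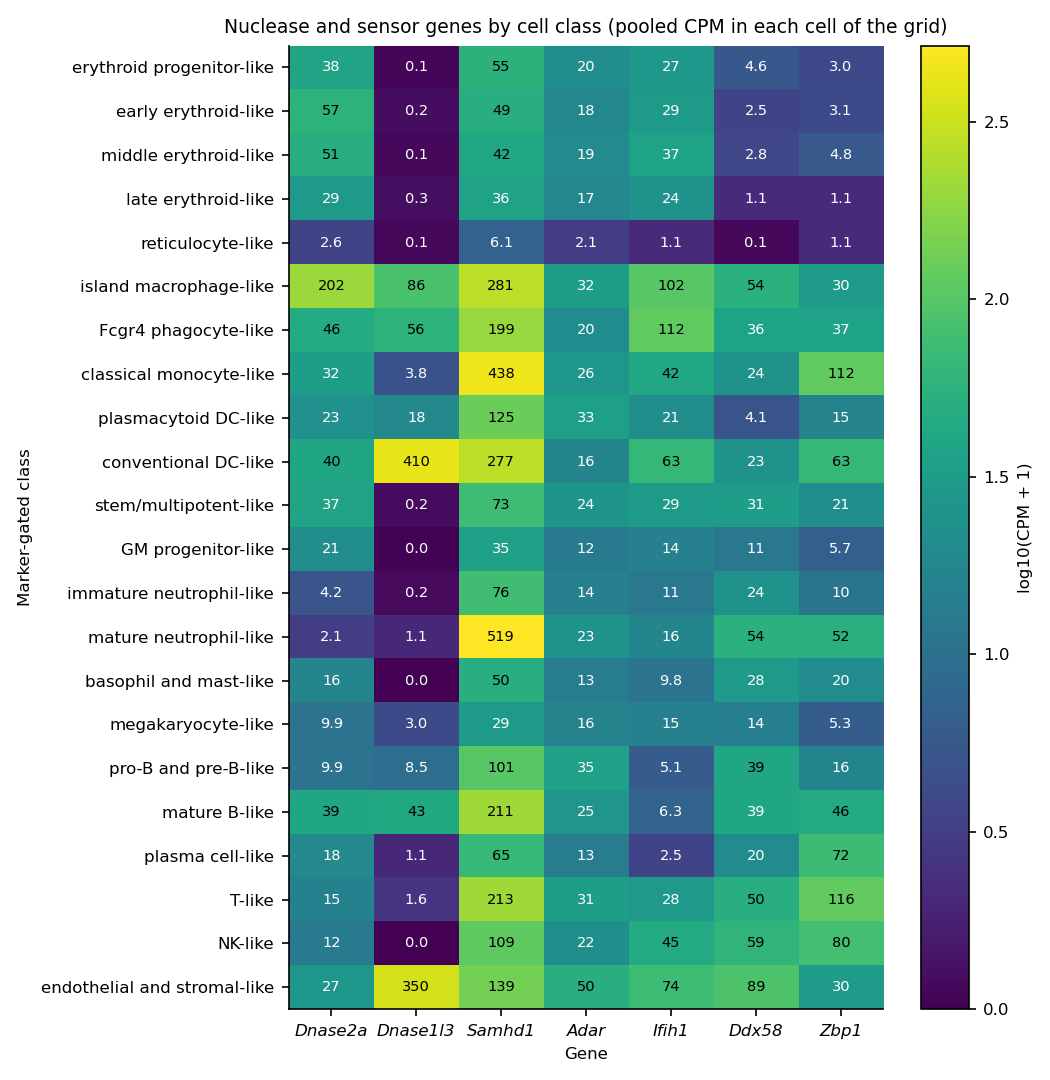
Level of each of the 7 genes in the 22 classes, as pooled CPM printed in each square, with colour on a log10 scale. Dnase2a peaked in island macrophage-like cells at 202 CPM and Dnase1l3 in conventional dendritic cell-like cells at 410.5 CPM, while Ddx58 and Zbp1 stayed under 5 CPM in every erythroid stage.

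The 7 genes differed in how far they were spread over the classes. Samhd1 reached 20 CPM in 21 of 22 classes. Dnase2a, Ifih1 and Ddx58 reached it in 13 classes each, Adar in 12 and Zbp1 in 11. Dnase1l3 reached it in 5 classes and was at 0 UMIs in 2. The highest class stood 390-fold above the median class for Dnase1l3 and 8.2-fold for Dnase2a, but 2.49-fold for Adar.

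Dnase2a (chr8:84908560-84922915, plus strand) was highest in the island macrophage-like cells, at 202 CPM (interval 184 to 222, from 437 UMIs). In the 4 runs with enough of these cells the level was 209, 142, 174 and 241 CPM (runs 3, 5, 6 and 7). These 4 values were all above every other class in every run. The next class, early erythroid-like, was at 56.6 CPM and ranged from 34.6 to 79.3 CPM over 7 runs. Fcgr4 phagocyte-like cells, which share the C1q genes with the island macrophages, were at 45.5 CPM (8.93 to 54.8 CPM over 7 runs). From the second place down to the late erythroid-like class in the tenth, each class overlapped its neighbour in its range over runs. The lowest classes were immature neutrophil-like cells at 4.18 CPM, reticulocyte-like cells at 2.60 CPM and mature neutrophil-like cells at 2.11 CPM.

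The share of cells with a Dnase2a UMI was also highest in island macrophage-like cells, although the order of the other classes differed from that of the levels. It was 49.0% of island macrophage-like cells (43.9% to 54.1%), with a median depth of 3200 UMIs. After every cell was thinned to 2000 UMIs, the share was 35.2% of the 230 island macrophage-like cells that were deep enough, 10.5% of early erythroid-like cells, 6.48% of Fcgr4 phagocyte-like cells and 6.15% of monocyte-like cells. The lowest such share was 0.503%, in mature neutrophil-like cells with a median depth of 5080 UMIs. The part of RNA free in the suspension was not tested.

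**Figure D2:**
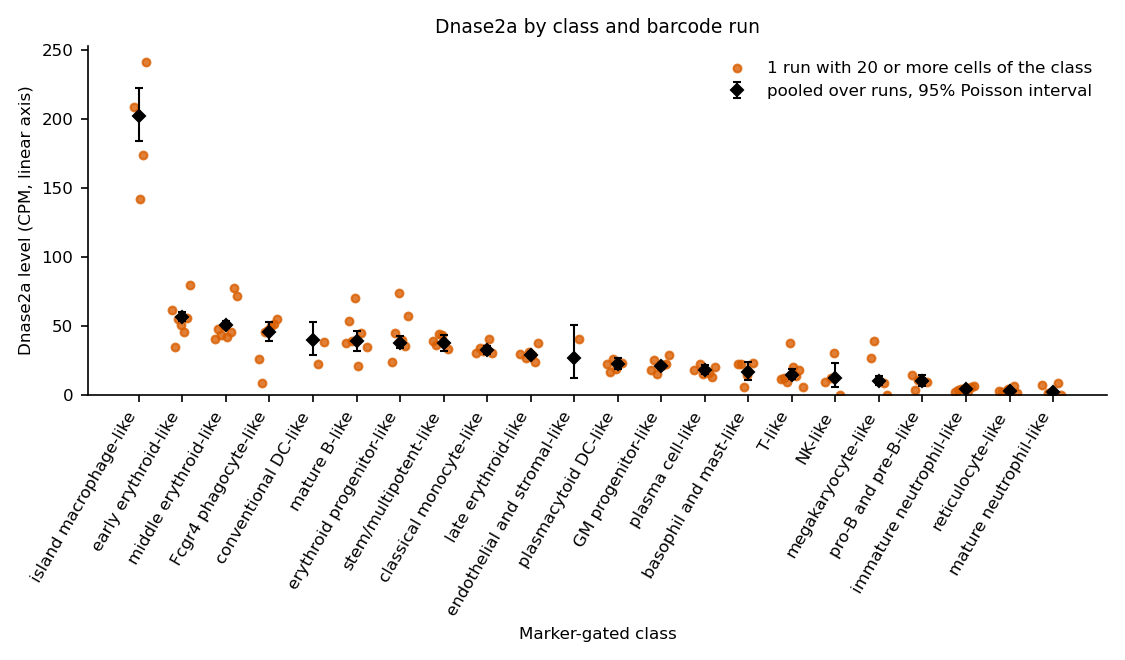
Dnase2a level (CPM, linear axis) in each class, with the pooled value and its 95% Poisson interval in black and single runs of at least 20 cells in orange. The 4 runs of island macrophage-like cells lie between 142 and 241 CPM, above every other point in the plot.

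Most Dnase2a UMIs nevertheless came from red cell precursors, which were far more numerous. The 8976 erythroid cells, from progenitors to reticulocyte-like cells, made up 36.0% of all cells and held 57.1% of the Dnase2a UMIs, against 6.40% in the island macrophage-like cells. The erythroid level was 39.5 CPM (38.2 to 40.7) and that of all other classes together was 19.8 CPM. That second value depends on the mix of cells. It includes 45274114 UMIs of immature neutrophil-like cells, at 4.18 CPM, as well as Fcgr4 phagocyte-like cells at 45.5 CPM. The macrophage genes C1qa, C1qb, C1qc and Cd5l summed to 14520 CPM in the island macrophage-like cells and to between 8.35 and 17.1 CPM in the erythroid stages. There were 0.0139 Dnase2a UMIs for each UMI of these genes in the macrophages and 4.25 in the early erythroid-like cells. The 1423 early erythroid-like cells without any UMI of the 4 genes had Dnase2a at 56.1 CPM, close to the 56.6 CPM of the whole class. Of the middle erythroid-like cells, 1121 had a Dnase2a UMI and 156 had at least 3. Klf1, an erythroid transcription factor gene, ends 3269 bases before Dnase2a on the same strand, and reads that run on from it were not tested.

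Across the erythroid stages the Dnase2a level depended on what it was divided by. Against all UMIs it was 37.9 CPM in progenitors, 56.6 CPM in the early, 50.8 CPM in the middle and 28.8 CPM in the late stage, and 2.60 CPM in reticulocyte-like cells. Globin RNA made up 10.7% of UMIs in the early stage, 69.4% in the late stage and 89.4% in reticulocyte-like cells. Against the UMIs other than globin, Dnase2a was at 38.2, 63.4, 85.6, 93.9 and 24.4 CPM over the same 5 stages. The drop in the reticulocyte-like cells was thus seen on both scales, whereas the late stage was below the early one on the first scale and above it on the second. Samhd1 and Ifih1 were likewise lower in the late than in the early stage on the first scale and higher on the second. Adar was at 17.7 CPM early and 16.9 CPM late on the first scale, with intervals that overlap. On the second scale Adar was at 19.8 CPM early and 55.3 CPM late. Levels and not numbers of molecules per cell are compared here.

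**Figure D3:**
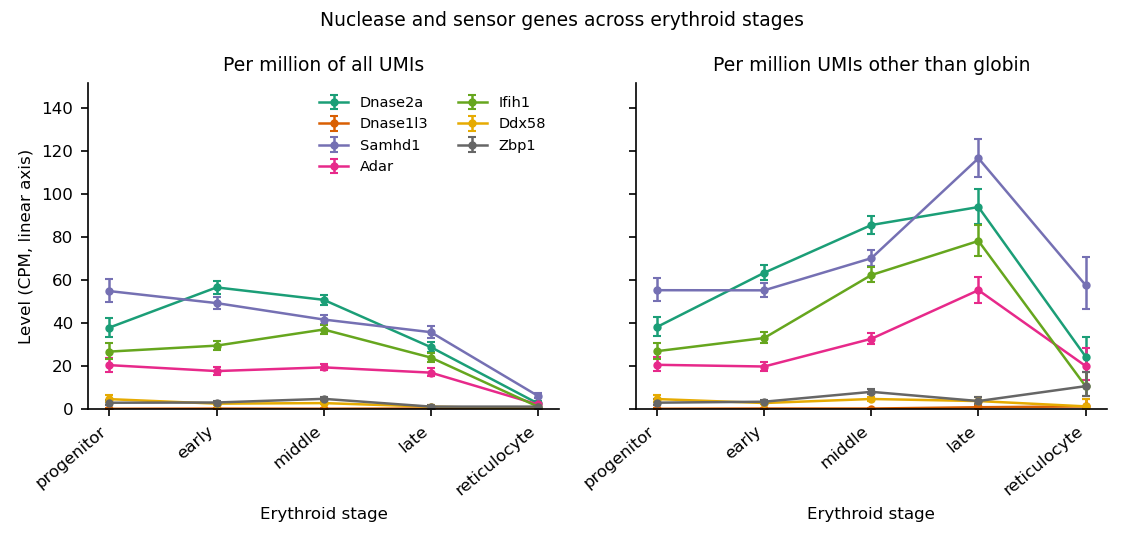
Levels of the 7 genes over the 5 erythroid stages on linear axes, as CPM of all UMIs on the left and as CPM of UMIs other than globin on the right, with 95% Poisson intervals. Dnase2a in the late stage is at 28.8 CPM on the left and 93.9 CPM on the right, and Dnase1l3 and Ddx58 lie near 0 in both panels. Zbp1 lies near 0 on the left and reaches 10.65 CPM on the right, in reticulocyte-like cells.

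A group of 22 island macrophage-like cells had at least 10% of their UMIs from globin. Their Dnase2a level was 122 CPM (86.3 to 167), against 216 CPM (195 to 238) in the other 364 cells. With globin left out of the totals the values were 158 CPM (112 to 217) and 219 CPM (198 to 242), with intervals that overlap. These cells had 4055 CPM of erythroid markers outside globin against 975 CPM, and a median of 12346 UMIs against 2650, and doublets with erythroid cells were not told apart from macrophages that had taken up erythroid RNA. In the cells under 10% globin the Dnase2a level was as high as in the whole class.

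The genes whose levels over the 22 classes were most like those of Dnase2a, among 10315 genes, were Hyal1 (Pearson r = 0.87), Hs6st1 (0.80) and Hspa1b (0.79). Hyal1 encodes a lysosomal hyaluronidase and was also highest in the island macrophage-like cells, at 26.9 CPM. These correlations, and those given for the other genes, run over 22 classes that share libraries and that differ in depth.

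Dnase1l3 (chr14:7964533-7994573, minus strand) was concentrated in few cells. Its 1499 UMIs fell in 508 cells, with up to 64 in 1 cell. The 96 conventional dendritic cell-like cells held 478 of them, at 410.5 CPM (375 to 449), and the 55 endothelial and stromal-like cells were at 350 CPM (290 to 419). Island macrophage-like cells were at 86.1 CPM, Fcgr4 phagocyte-like cells at 56.0 CPM, mature B-like cells at 43.1 CPM and plasmacytoid dendritic cell-like cells at 17.9 CPM. The 5 erythroid stages were between 0.129 and 0.26 CPM. Basophil and mast-like and NK-like cells had 0 UMIs, with intervals that reach up to 2.42 and 4.98 CPM. The order of the first 2 classes was not fixed: without run 5 the endothelial and stromal-like class was the higher one.

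Within several classes the transcript was uneven. Plasmacytoid dendritic cell-like cells differed, with 105 UMIs spread over 92 cells and at most 3 in a cell. In the conventional dendritic cell-like class, 28 cells with at least 3 UMIs held most of the RNA, and 60 cells had none. The 28 cells had more Xcr1 (216 against 47.8 CPM) and Clec9a (134 against 70.0 CPM), markers of the cross-presenting subset. Ccr7, a gene of migrating dendritic cells, was higher in them (503 against 251 CPM). Fscn1, another such gene, was lower (150 against 289 CPM). Tlr3, a receptor for double-stranded RNA, was at 34.9 against 35.9 CPM. They had less Cd209a (28.8 against 364 CPM) and no UMI of Clec10a (178 CPM in the cells without Dnase1l3), both markers of another subset. The 28 cells were deeper, with a median of 15610 UMIs against 7849 UMIs, and the part of depth was not tested. The class value was 178 CPM in run 6 and 592 CPM in run 8, the 2 runs with at least 20 such cells.

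In the endothelial and stromal-like class, the 19 cells with at least 3 Dnase1l3 UMIs had 710 CPM of Cdh5 and 1083 CPM of Kdr, endothelial genes, and 12.2 CPM of Col1a1, a collagen gene of stromal cells. The 28 cells without Dnase1l3 had 112 CPM of Cdh5, 195 CPM of Kdr and 40220 CPM of Col1a1. The cells with most Dnase1l3 RNA in this class were thus its endothelial and not its collagen-producing cells. Island macrophage markers were at 2729 CPM in the 19 cells and 1032 CPM in the 28, and their part in the result was not tested.

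The phagocytes had a range over runs. Island macrophage-like cells were at 20.9 CPM in run 3, 122 CPM in run 5, 36.3 CPM in run 6 and 102 CPM in run 7. Fcgr4 phagocyte-like cells were at 86.0 CPM in run 5 and 88.1 CPM in run 7, and at 0 to 31.0 CPM in the other 5 runs. Both classes were therefore high in runs 5 and 7. In the mature B-like cells 101 of 131 UMIs came from run 8, which stood at 126 CPM against 9.03 to 18.7 CPM in the other 6 runs. Of the 15 mature B-like cells with at least 3 UMIs, 13 came from run 8. Their own markers were at 3907 CPM, against 5818 CPM in the mature B-like cells without Dnase1l3. Their median depth was 11497 against 5089 UMIs, and the parts of run and depth were not tested. Neither group had a UMI of Xcr1 or Clec9a.

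The genes most like Dnase1l3 over the classes were Tlr3 (r = 0.95), Cxcl9 (0.90), an interferon-induced chemokine, and Zfp366 (0.88), a transcription factor gene of dendritic cells. Cxcl9 was highest in the endothelial and stromal-like cells, at 445 CPM. A further 13 cells with at least 3 UMIs of Dnase1l3 received no class. They had H2-Eb1 at 8719 CPM, against 198 CPM in all other cells, with or without a class. Their leading marker list was island macrophage in 4 cells, Fcgr4 phagocyte in 3 and conventional dendritic cell in 3. It was classical monocyte in 2 cells and endothelial and stromal in 1.

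Samhd1 (chr2:157097533-157135265, minus strand) was the gene of the set with most UMIs, 25560. It was highest in mature neutrophil-like cells at 519 CPM (498 to 540) and in classical monocyte-like cells at 438 CPM (428 to 448). Over the 5 runs with enough mature neutrophil-like cells it ran from 454 to 623 CPM, with a median of 575 CPM, and over the 6 monocyte runs from 339 to 510 CPM, with a median of 437 CPM. These 2 ranges overlap. Island macrophage-like cells (281 CPM), conventional dendritic cell-like cells (277 CPM), T-like cells (213 CPM), mature B-like cells (211 CPM) and Fcgr4 phagocyte-like cells (199 CPM) followed, each overlapping the next over runs. Erythroid cells were at 54.9 CPM in progenitors and 35.8 CPM in the late stage.

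Within the neutrophil lineage the level went from 35.0 CPM in granulocyte-monocyte progenitor-like cells to 76.0 CPM in immature and 519 CPM in mature neutrophil-like cells. One progenitor-like cell of run 8, noticed after the values were seen, held 157 of the 743 UMIs of its class. After thinning, 5.22%, 16.0% and 61.8% of the cells of these 3 classes had a Samhd1 UMI. The genes most like it were Rara (r = 0.90), Gdap10 (0.88) and Ier5 (0.87), of which Rara, the retinoic acid receptor alpha gene, was also highest in mature neutrophil-like cells.

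Adar (chr3:89715022-89753446, plus strand) was the flattest of the 7. Its highest value, 50.4 CPM in endothelial and stromal-like cells, rested on 17 UMIs and had an interval from 29.4 to 80.7 CPM. Pro-B and pre-B-like cells (34.8 CPM), plasmacytoid dendritic cell-like cells (32.9 CPM), island macrophage-like cells (32.4 CPM) and T-like cells (31.4 CPM) followed with overlapping intervals. The erythroid stages before the reticulocyte were between 16.9 and 20.4 CPM. With globin left out of the totals, late erythroid-like cells were the highest class, at 55.3 CPM against 50.7 CPM in endothelial and stromal-like cells. Over runs, the middle erythroid-like cells ranged from 7.32 to 33.4 CPM, and runs 3 and 4 were the highest there and in the early stage. The genes most like Adar were Rbm18, Arnt and Msl2 (r = 0.89, 0.89 and 0.87).

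The RNA receptor genes Ifih1 and Ddx58 did not follow each other. Ifih1 (chr2:62595798-62646255, minus strand) was highest in Fcgr4 phagocyte-like cells at 112 CPM (102 to 124) and in island macrophage-like cells at 102 CPM (88.8 to 116). Fcgr4 phagocyte-like cells ranged from 43.0 to 289 CPM over 7 runs with a median of 84.4 CPM. Island macrophage-like cells ranged from 51.8 to 157 CPM over 4 runs with a median of 122 CPM. The order of these classes was thus opposite in the pooled values and in the medians over runs, and without run 7 the macrophages were the higher class. Monocyte-like cells were at 41.8 CPM. Erythroid cells, 36.0% of all cells, had 43.9% of all Ifih1 UMIs. Their level was 26.5 CPM, against 21.9 CPM in all other classes together, which include immature neutrophil-like cells at 11.1 CPM. It was 37.0 CPM in the middle stage (12.2 to 46.6 CPM over 8 runs). The cells of the B lineage were lowest before the reticulocytes, with 6.25 CPM in mature B-like, 5.12 CPM in pro-B and pre-B-like and 2.502 CPM in plasma cell-like cells.

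Ddx58 (chr4:40203773-40239828, minus strand) had the reverse pattern in erythroid and B-lineage cells. The 5 erythroid stages held 212 of its 3780 UMIs, or 5.61%, at 2.15 CPM (1.87 to 2.46), against 24.4 CPM over all other classes. Middle erythroid-like cells ranged from 0 to 4.29 CPM over 8 runs. Plasmacytoid dendritic cell-like cells were also low, at 4.09 CPM, with 2.48 to 6.59 CPM over 5 runs. The highest classes were endothelial and stromal-like (89.0 CPM from 30 UMIs), NK-like (59.4 CPM), island macrophage-like (53.7 CPM), mature neutrophil-like (53.5 CPM) and T-like (interval 43.6 to 57.1 CPM). The ranges over runs of the NK-like, macrophage, neutrophil and T-like classes overlap, and the single run of endothelial and stromal-like cells stood at 89.6 CPM. Pro-B and pre-B-like, mature B-like and plasma cell-like cells were at 39.3, 38.5 and 19.6 CPM.

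As both genes were counted in the same cells, their UMIs can be set against each other without a scale. Ifih1 gave 93.0% of the UMIs of the pair in middle erythroid-like cells (91.5% to 94.3%), with 90.4% to 100% over the 8 runs. It gave 65.5% in island macrophage-like cells (60.5% to 69.1% over 4 runs) and 23.5% in mature neutrophil-like cells (22.2% to 50% over 5 runs). In pro-B and pre-B-like cells it gave 11.5%, with 6.12% to 21.1% over 3 runs. The ranges over runs of the early, middle and late erythroid stages lay above those of every B-lineage, T-like and neutrophil-like class. The share depends on how well each transcript is captured, so its order over classes is informative here and its distance from 50% is not.

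**Figure D4:**
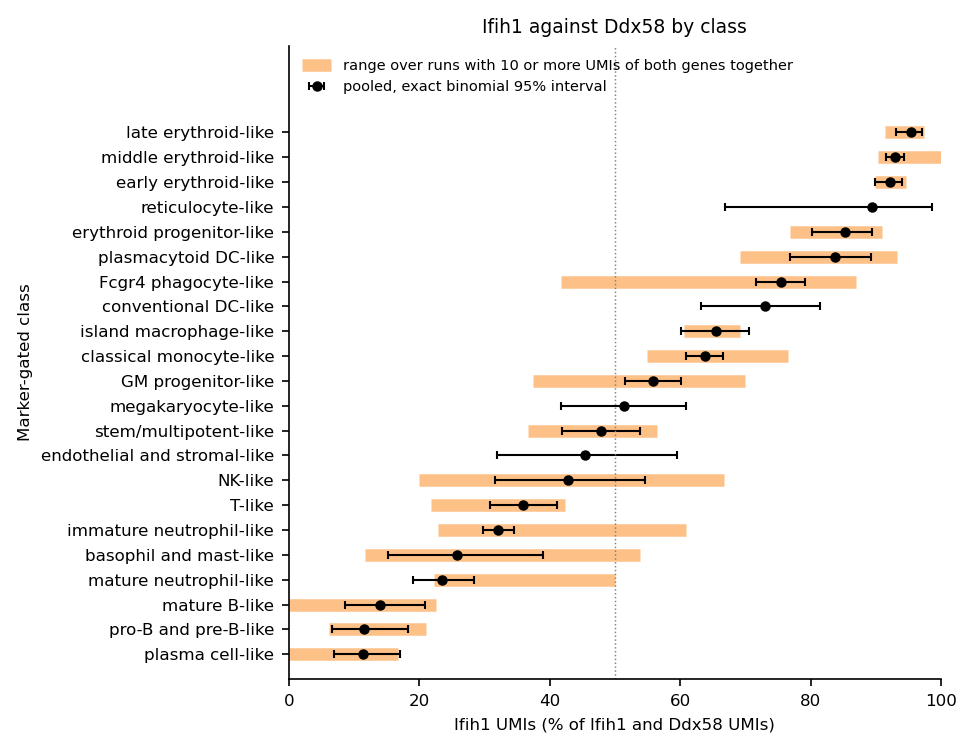
Ifih1 UMIs as a percentage of Ifih1 and Ddx58 UMIs together in each class, with exact binomial 95% intervals in black and the range over runs with at least 10 UMIs of the pair in orange. The early, middle and late erythroid-like classes lie at 92.1% to 95.5% and the 3 B-lineage classes at 11.3% to 13.97%.

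The genes most like Ifih1 over the classes were Znfx1 (r = 0.84), Parp12 (0.83) and Tgm2 (0.82), of which Znfx1 and Parp12 are interferon-induced and were highest in island macrophage-like cells. Those most like Ddx58 were the immediate early genes Junb (r = 0.89) and Egr1 (0.88), and Arid5b (0.88). The correlation between Ifih1 and Ddx58 themselves was 0.33, while that between Ddx58 and Zbp1 was 0.73 and that between Samhd1 and Zbp1 was 0.79.

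Ifih1, Ddx58 and Adar are known as interferon-induced genes, so their promoter windows were searched for the interferon-stimulated response element, written as GAAANNGAAA, and for the same repeats 1 base apart, GAAANGAAA. Windows of 300 bases, from 250 before to 50 after a RefSeq transcription start on build GRCm38.p6, were available for 5 of the genes (Ifih1, Ddx58, Adar with 3 starts, Samhd1 and Dnase2a). On either strand, 3.44% of all 32851 windows held the first motif and 3.17% the second. The motifs were chosen after the levels were seen. The windows with a match are shown, since the levels of these interferon-induced genes differed between classes, from 120 bases before the start, 5′ to 3′ along the gene, with the matched letters in capitals. They are chr2:62646206-62646375 (minus strand) for Ifih1, chr4:40239776-40239945 (minus strand) for Ddx58 and chr3:89730598-89730767 (plus strand) for Adar.
Ifih1: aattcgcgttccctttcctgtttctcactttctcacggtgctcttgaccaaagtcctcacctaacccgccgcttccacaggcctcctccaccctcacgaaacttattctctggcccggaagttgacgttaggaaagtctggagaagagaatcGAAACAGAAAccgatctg
Ddx58: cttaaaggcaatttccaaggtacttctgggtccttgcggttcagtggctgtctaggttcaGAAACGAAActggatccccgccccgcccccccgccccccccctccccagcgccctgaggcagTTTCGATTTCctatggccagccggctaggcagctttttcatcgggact
Adar: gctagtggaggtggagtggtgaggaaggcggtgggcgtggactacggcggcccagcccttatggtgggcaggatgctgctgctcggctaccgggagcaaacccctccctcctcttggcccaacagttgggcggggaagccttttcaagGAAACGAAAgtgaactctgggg
The Ifih1 window held 1 match of the first motif, just after the start. The Ddx58 window held 1 match of each, with the first motif on the opposite strand. The Adar window shown, at a start inside the gene, held 1 match of the second motif, and the other 2 Adar windows and those of Samhd1 and Dnase2a held neither. Ifih1 and Ddx58 both had the first motif near the start, on different strands. Any part of these matches in the levels of the genes was not tested. A match in letters shows neither binding nor use.

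Zbp1 (chr2:173206612-173218923, minus strand) was highest in T-like cells at 116 CPM (106 to 127) and in classical monocyte-like cells at 112 CPM (107 to 117). T-like cells ranged from 54.7 to 165 CPM over 8 runs with a median of 102 CPM, and monocyte-like cells from 83.4 to 213 CPM over 6 runs with a median of 109 CPM, so that the 2 classes overlap. Leaving out run 1 or run 2 put monocyte-like cells first. NK-like (79.6 CPM), plasma cell-like (71.6 CPM), conventional dendritic cell-like (62.7 CPM) and mature neutrophil-like cells (51.6 CPM) came next. Island macrophage-like cells were at 30.1 CPM.

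In erythroid cells Zbp1 was between 1.13 and 4.75 CPM, and in every stage from progenitors to reticulocyte-like cells most of the UMIs came from run 5. Run 5 held 132 of the 164 UMIs of the middle erythroid-like cells, at 13.1 CPM, whereas the other 7 runs were between 0 and 3.83 CPM. Of these 132 UMIs, 93 were in 16 cells with at least 3 each. Erythroid progenitor-like cells showed the same, with 47.2 CPM from 13 UMIs in run 5. The genes most like Zbp1 were Shisa5 (r = 0.91), Cd52 (0.85) and Gng2 (0.84).

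Differences were then measured between 5 pairs of classes. Levels were expressed as log2(CPM + 10) and centred on the median gene, and a gene was counted as higher or lower when the pooled classes were at least 2-fold apart and one of them had 20 CPM or more. Such a count describes the pooled cells. The added 10 CPM draws differences of low genes towards 0 before centring.

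Island macrophage-like cells were set against classical monocyte-like cells, the circulating myeloid cells from which some macrophages arise. All 7 genes passed the level filter, 3 were higher and 1 was lower, where 28.7% of all 6397 genes were called (16.6% higher and 12.1% lower). Dnase2a was higher by 2.40 on the log2 scale (202 against 32.4 CPM) and Dnase1l3 by 2.88 (86.1 against 3.80 CPM). The monocyte value of Dnase1l3 rested on few cells, with 27 of 63 UMIs in 1 cell and a median over runs of 0.876 CPM. The 4 monocyte-like cells with at least 3 Dnase1l3 UMIs had 11490 CPM of conventional dendritic cell markers and 1799 CPM of monocyte markers. Ifih1 was higher by 1.19 (102 against 41.8 CPM), and Zbp1 was lower, at -1.53 (30.1 against 112 CPM). Ddx58 was at 0.99, Adar at 0.33 and Samhd1 at -0.55, within 2-fold. In the 3 runs with both classes, the difference was 1.64 to 2.33 for Dnase2a, 1.41 to 2.08 for Dnase1l3, 0.03 to 1.54 for Ifih1 and -2.76 to -1.72 for Zbp1. All 3 runs shared the sign for these 4 genes. The pooled Dnase2a and Dnase1l3 differences were larger than those of any run with both classes.

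Among other genes of these pathways, lysosomal genes were higher in the macrophages in 10 of 16 and lower in 1, with a median difference of 1.36 where the median of all genes is 0. Lgmn (legumain) was at 1746 against 73.1 CPM and Ctsd (cathepsin D) at 4674 against 275 CPM. Of 12 other nucleases measured, 1 was higher and 1 lower, with a median of 0.05. Pld3, a lysosomal exonuclease for single-stranded nucleic acid, was at 650 CPM (616 to 685) against 8.98 CPM, a difference of 5.20. Pld3 was below 75 CPM in all other classes. The lower gene was Rnaseh2c, a subunit of RNase H2, at 43.5 against 194 CPM. Of 7 DNA sensing genes 3 were lower, with a median of -0.94. They were Ifi203, Ifi205 and Tmem173, the gene of the adaptor STING, at 29.6 against 76.2 CPM. Of 7 genes of RNA sensing 2 were higher, Ddx60 (31.9 against 6.21 CPM) and Mavs, the adaptor of MDA5 and RIG-I (25.9 against 7.47 CPM). Mavs fell on both sides of 0 over runs.

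Against Fcgr4 phagocyte-like cells, the macrophages differed in 1 of the 7 genes, where 17.4% of 6122 genes were called (11.2% higher and 6.17% lower). Dnase2a was higher by 1.95 (202 against 45.5 CPM), with 1.31 to 1.92 over 4 runs. The other 6 genes were between -0.21 and 0.56. Over runs, Samhd1 ranged from -1.10 to 1.43 and Ifih1 from -0.95 to 1.07, on both sides of 0. Lysosomal genes were again higher in 10 of 16 and lower in none (median 1.41), and Pld3 was at 650 against 36.7 CPM. Pld4, the other exonuclease of this family, was lower in the macrophages, at 337 against 735 CPM. Summed over the list, lysosomal genes were at 27320 CPM in island macrophage-like cells (18610 to 31350 CPM over 4 runs) and at 7116 CPM in Fcgr4 phagocyte-like cells (3069 to 11990 CPM over 7 runs), and the ranges did not overlap.

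**Figure D5:**
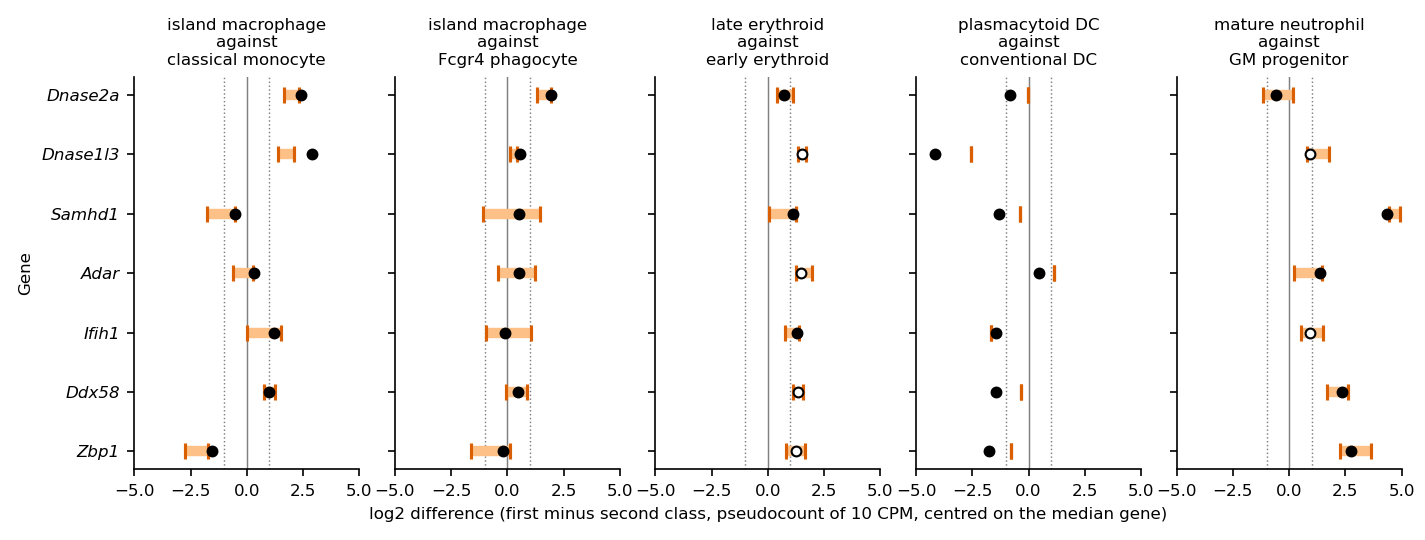
Log2 differences of the 7 genes between the first and the second class of each pair, with pooled values as points (open where both classes are under 20 CPM), ranges over runs in orange and dotted lines at 2-fold. Dnase2a stands at 2.40 and 1.95 in the 2 comparisons of island macrophage-like cells, and Samhd1 at 4.33 in mature neutrophil-like cells.

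Late were compared with early erythroid-like cells to follow the genes as the precursors mature. Of the 3 genes that passed the filter, 2 were higher and none lower, where 28.2% of 4670 genes were called (15.9% higher and 12.3% lower). Samhd1 was higher by 1.12 and Ifih1 by 1.27, and Dnase2a stood at 0.71. All 3 were positive in the 6 runs with both stages. These values are relative to the median gene, which was 1.49 lower in the late cells on plain totals, so that a gene at 0 in both stages would also stand at 1.49. On that scale Samhd1 turned to -0.37 (35.8 against 49.3 CPM) and Ifih1 to -0.22 (24.0 against 29.5 CPM). Without run 5, 1 gene was past 2-fold.

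For comparison, 11 of 11 measured interferon-induced genes outside the set were higher in the late cells, with a median of 2.28. Isg15 was at 1328 against 162 CPM and Rsad2 at 988 against 110 CPM, both of which were higher on plain totals too. The summed level of the 19 listed genes was 263 CPM in progenitors, 564, 1473 and 2773 CPM in the early, middle and late stages, and 1573 CPM in reticulocyte-like cells. Irf7, the interferon regulatory factor gene, was at 76.6 against 34.4 CPM. The nucleic acid sensors of the set did not share this size of difference: Ifih1 stood 1.27 above the median gene, and Ddx58 (1.14 against 2.52 CPM) and Zbp1 (1.14 against 3.06 CPM) were under 20 CPM in both stages.

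Plasmacytoid dendritic cell-like cells, the main producers of type I interferon in blood, were compared with conventional ones. Of the 7 genes 5 were lower and none higher, where 18.2% of 6168 genes were called (8.17% higher and 10.1% lower). Dnase1l3 was at 17.9 against 410.5 CPM (-4.15), Zbp1 at 15.3 against 62.7 CPM (-1.76), Ddx58 at 4.09 against 23.2 CPM (-1.47), Ifih1 at 21.1 against 62.7 CPM (-1.46) and Samhd1 at 125 against 277 CPM (-1.32). Of the 27 Ddx58 UMIs in the conventional dendritic cell-like cells, 8 were in 1 cell. In the 2 runs with at least 20 of these cells, Ddx58 was at 7.43 and 20.8 CPM. Adar was at 0.47 and Dnase2a at -0.83. Only run 6 had at least 20 cells of both classes, and it held 867 of the 1110 plasmacytoid cells. In run 6 Dnase1l3 stood at -2.56 and Ifih1 at -1.67, while Samhd1, Ddx58 and Zbp1 were within 2-fold at -0.39, -0.33 and -0.80. Under a stricter gate Ifih1 was at 0.01. Pld4 and Irf7 were higher in the plasmacytoid cells, at 820 against 326 CPM and 306 against 109 CPM. Ifi205, a DNA sensing gene, was at 2.21 against 237 CPM.

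The last pair set mature neutrophil-like cells beside the granulocyte-monocyte progenitor-like class. Of the 5 genes that passed the filter 4 were higher and none lower, where 56.1% of 5569 genes were called (31.9% higher and 24.3% lower), so such differences were common between these classes. Samhd1 was higher by 4.33 (4.44 to 4.91 over 5 runs), Zbp1 by 2.75 (51.6 against 5.66 CPM), Ddx58 by 2.37 (53.5 against 11.1 CPM) and Adar by 1.35 (23.2 against 12.2 CPM). Over runs Adar ranged from 0.20 to 1.48. The median gene was 0.77 lower in the mature cells, and on plain totals Adar was at 0.58, within 2-fold. In CPM, Adar was higher in the mature class in runs 3 and 4 and near or below the progenitor level in runs 1, 6 and 7. Leaving out run 8, with the progenitor-like cell of 157 Samhd1 UMIs, gave 4.58 for Samhd1. Dnase2a was at 2.11 against 20.7 CPM, a difference of -0.57 after the added 10 CPM and centring. Interferon-induced genes were higher in 14 of 14 with a median of 2.71, and the DNA sensing gene Ifi204 was at 70.4 against 1.13 CPM. Of 9 other nucleases 5 were lower and 2 higher, with Rnaset2b at 9.48 against 133 CPM and Apex1 at 1.27 against 69.3 CPM.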

How the data were processed

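The deposited values are raw UMI counts of 19669 genes in 24942 cells, from 10x Genomics V3.1 libraries per the labels' protocols. Cell Ranger 5.0.0, Seurat 3.1.5 and mm10 are listed in the submitters' processing notes. Which cell filters the authors used is not stated in those sources. The genes, lists and classes were chosen with earlier results of these data known.

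Each cell was scored for 18 marker lists on log values per 10000 non-globin UMIs, relative to the 100 highest cells. It took the leading class if at least 3 markers were detected, the score reached 0.15 and the next score was clearly lower. No doublet caller was run, and 1402 cells (5.62%) lay near the limit on the lead over the next score. Cells near the other limits were not counted. The 3727 unassigned cells had a median of 1865 UMIs. Class sums of UMIs were turned into CPM (Python 3.11.15 with pandas 2.3.3, numpy 2.4.6 and scipy 1.17.1; figures with matplotlib 3.10.9). For classes at 0, the exact Poisson interval gave the upper limit. Pathway genes were named by size, up to 4 per list and comparison, and likest genes by Pearson correlation of log2(CPM + 10). Gene positions follow GENCODE M21. The calculation was tested on simulated data. Alternatives covered clusters (scanpy 1.11.5), gates, cell filters, totals, pseudocount, repeated barcodes and each run left out.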

Additional observations from a re-analysis of the deposited data

How the results depend on the processing

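Of the values for single genes under the alternatives, 402 kept their direction and moved by less than the counting interval, 66 moved by more and 3 turned. On plain totals, Samhd1 and Ifih1 in late against early erythroid-like cells turned to -0.374 and -0.218, because the median gene lies lower there. A leading score of at least 2 times the next, chosen after the data were seen, put Ifih1 at 0.009 and left 3 genes past 2-fold in plasmacytoid against conventional dendritic cell-like cells, in place of 5; the cause was not tested. The count in late against early erythroid-like cells was 2, and became 4 with globin left out of the totals and 0 on plain totals. With Leiden clusters, 2 genes in place of 1 separated island macrophage-like from Fcgr4 phagocyte-like cells, and 2 of 7 genes kept their class of highest level, Dnase2a and Samhd1. The only cluster named for island macrophages, of 364 cells, had the collagen genes Col1a1 and Col1a2 among its leading genes. No cluster was named for conventional dendritic, NK or endothelial cells, so the comparison of dendritic cells had no value there. With each run left out in turn, the counts were 4 to 5 for macrophages against monocytes, 1 to 1 against Fcgr4 phagocytes, 1 to 2 for late against early erythroid cells (1 without run 5), 4 to 5 for the dendritic cells and 4 to 4 for neutrophils, and 6 to 7 genes kept their highest class. No paired analysis was possible because cells carry no library and no test was made. Counting error limits classes with few cells, such as the 55 endothelial and stromal-like cells.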
